A study of Mus musculus with 6 samples.

Results

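The Fgf ligands and response genes described here are 10 genes of the mouse embryonic forebrain, found by name among the 38561 genes of the raw count table. They are 4 ligands, Fgf8, Fgf15, Fgf17 and Fgf18, and 6 genes that answer to Fgf signalling, Spry1, Spry2, Spry4, Dusp6, Etv4 and Etv5. Each name matched 1 row, and 10 of 10 passed the filter on low counts, beside 16495 genes in all. The set was chosen by roles in Fgf signalling with the genotype difference in these same libraries already known, so it counts as selected on the measured fold changes. Their differences between genotypes are therefore a description and support nothing further.

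Fibroblast growth factors are secreted proteins that bind receptor tyrosine kinases together with heparan sulfate and switch on the Ras and ERK kinase cascade. In the embryonic telencephalon Fgf8, Fgf17 and Fgf18, which form a subfamily, are made by the rostral midline and pattern the territory around it, while Fgf15 is made by neural progenitors. Cells that receive the signal transcribe the ETS factors Etv4 and Etv5 as well as inhibitors of the same cascade, the Sprouty proteins and the ERK phosphatase Dusp6. The response genes are therefore widely read as a record of the signal.

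The libraries came from cells sorted at E11.5 (days of embryonic development) by a tdTomato reporter that Cre recombinase under Nkx2.1 control switches on, so the gate holds the descendants of cells that once made Nkx2-1. All 6 samples were C57BL/6 and carried Nkx2.1-Cre with the floxed-stop ROSA tdTomato reporter. The 4 controls had no further allele, and the 2 heterozygous samples also had a floxed Magoh allele (lox/+), Magoh being part of the complex that marks exon junctions on spliced mRNA. The labels call the cells MGE cells (medial ganglionic eminence, the source of many cortical interneurons) from the telencephalon, and do not say whether a sample is 1 embryo or a pool, so the spread between samples may be partly technical.

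Totals ran from 37429290 to 49189360 counts. Magoh itself stood at 63.7 to 118 CPM (read counts scaled to library size with TMM factors) in controls and at 57.1 and 48.6 CPM in heterozygous libraries 1 and 2, below every control without passing the test (edgeR, adjusted p = 0.85). The labels do not say which exons Cre removes, and reads of Magoh outside them would not check the labels. The marker Nkx2-1 stood at 339 to 562 CPM in controls and 349 and 466 CPM in the heterozygous libraries, and of 9 MGE lineage markers 0 were without reads. Control 2 and heterozygous library 1 had 0 reads of 4 Y-linked genes, against 3453 to 4291 in the others. The same 2 libraries had fewer reads of long transcripts. Long transcripts (at least 8000 nt) relative to short ones (under 1000 nt) deviated by a median of -0.92 and -0.40 log2 units there and 0.12 to 0.51 in the others. Sex and this length difference cannot be told apart. The heterozygous libraries also missed more weakly expressed genes. Where the remaining libraries averaged 20 to 40 reads, 11.1% and 10.6% of genes had 0 reads in them, against 0.429 to 3.93% in controls.

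All 10 genes had a lower mean in Magoh lox/+ cells, from -0.34 to -2.85 on the log2 scale, and Fgf8 had the lowest fold change of the 10. With edgeR's quasi-likelihood test, adjusted by Benjamini-Hochberg over all genes tested, 0 of 10 passed, as did 0% of all genes (limma-voom also called 0%). An unadjusted p under 0.05 was reached by 6 of the 10, all lower in Magoh lox/+ cells, and by 5.72% of all genes (3.98% counting only lower ones). DESeq2 called 1 of the 10, Fgf8, against 0.362% of all genes (0.333% lower). Both heterozygous libraries lay below every control for 6 of the 10, against 8.14% of all genes, and above every control for 0 of the 10, against 6.17%. The share of all genes below every control was 10.4% at means under 3 CPM, 8.97% at 3 to 30 CPM and 5.61% at 30 CPM or more, and 7.54% over all genes of at least 1 CPM. Of the 10, 9 were lower both between the 2 libraries without Y-linked reads and between heterozygous library 2 and the other controls, as were 26.9% of all genes. The median log2 fold change was -0.97 over the 10 and -0.03 over all genes tested, of which 53.9% were below 0. Since the contrast chose the genes, these counts carry no weight of their own. In bulk RNA, fewer cells that make a transcript and less of it per cell cannot be told apart.

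**Figure D1:**
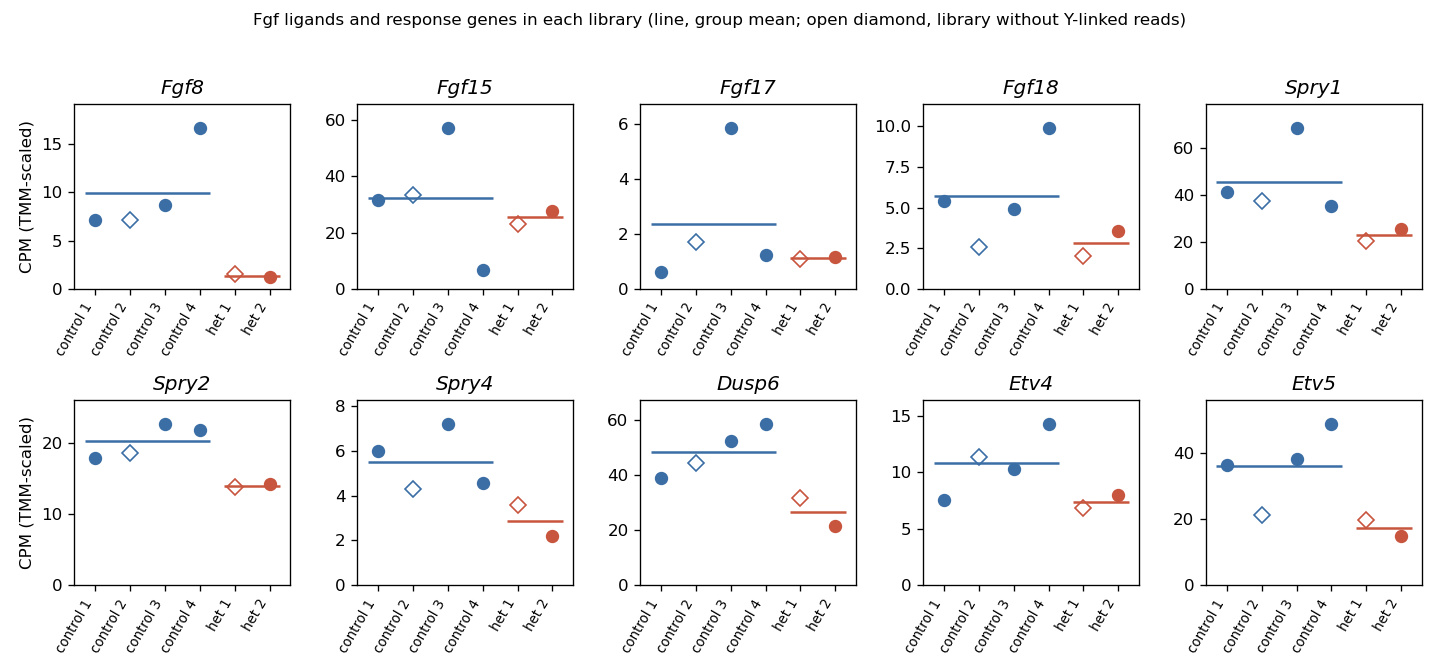
Level of each gene in each library on the y axis (TMM-scaled CPM, linear axis from 0), with 4 controls in blue and 2 heterozygous (het) libraries in red, lines at group means and open diamonds for the libraries without Y-linked reads. For Fgf8, Spry1, Spry2, Spry4, Dusp6 and Etv5 both red points lie below all blue points, and Fgf15 in control 4, at 6.58 CPM, is the lowest of its panel.

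Fgf8 (ENSMUSG00000025219; chromosome 19, 45736798 to 45742915, minus strand, GRCm38), the organizer signal of the rostral forebrain, was read 268, 256, 392 and 744 times in controls 1 to 4 and 64 and 61 times in the heterozygous libraries. These reads correspond to 7.18, 7.12, 8.66 and 16.65 CPM in controls and 1.51 and 1.24 CPM in Magoh lox/+ cells. Control 4 was far above the other 3 controls, which lay close to each other, and the groups did not overlap. The means were 9.91 ± 4.55 CPM (SD, n = 4) and 1.38 ± 0.189 CPM (SD, n = 2), a 7.2-fold difference. The fitted difference, -2.85 ± 0.46 (log2, SE), did not pass edgeR's test (adjusted p = 0.793). DESeq2 gave -2.84 with an adjusted p of 8.39e-07, and it was the only tool of those run that called the gene. The difference on log2 CPM was -2.20 between the 2 libraries without Y-linked reads and -2.98 between heterozygous library 2 and the other 3 controls. Without control 4 the fold change was -2.47.

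Fgf18 (chromosome 11, 33117430 to 33147400, minus strand), of the same subfamily, stood at 5.44, 2.56, 4.93 and 9.89 CPM in controls 1 to 4 and at 2.05 and 3.58 CPM in heterozygous libraries 1 and 2. As for Fgf8, control 4 was the highest, but here control 2 fell between the 2 heterozygous libraries. The fitted difference, -1.02 ± 0.53 (log2, SE), missed edgeR's threshold (adjusted p = 0.899). Leaving out control 4 brought it to -0.61 and leaving out heterozygous library 1 or 2 to -0.66 or -1.48.

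Fgf17 (chromosome 14, 70636203 to 70642268, minus strand) had the fewest reads per length of the 4 ligands. It stood at 0.617, 1.70, 5.86 and 1.23 CPM in controls and 1.08 and 1.16 CPM in Magoh lox/+ cells. Control 3 alone set the control mean apart, and the heterozygous libraries lay between control 1 and control 4. Without control 3 the log2 fold change went from -1.07 (standard error 0.85, edgeR, adjusted p = 0.976) to -0.07, and it was -0.62 with limma-voom and -0.54 with limma-trend.

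Fgf15 (chromosome 7, 144896531 to 144900953, plus strand), the progenitor ligand, differed least. It stood at 31.8, 33.4, 57.1 and 6.58 CPM in controls and 23.2 and 27.7 CPM in Magoh lox/+ cells. The controls spanned 8.69-fold, more than the groups differed, and the library that was highest for Fgf8 and Fgf18 was the lowest for Fgf15. The fitted difference, -0.34 ± 0.65 (log2, SE), did not pass edgeR's test (adjusted p = 0.9995), and it turned to 0.09 without control 3. Fgf15 overlaps 2 annotated genes on the other strand. One of them, Gm26793, had 1.11 to 2.37 CPM, and whether counting used strand is not given.

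Control 4 also differed from the other controls in markers of regions. MGE lineage markers summed to 977 CPM there and 1525 to 1835 CPM in the other controls. Zic1, a gene of the septum, stood at 64.7 CPM there against 159 to 233 CPM, while Rax, a homeobox gene of the hypothalamic primordium, stood at 133 CPM against 61.1 to 79.7 CPM. The hypothalamic list was not uniform there, since Otp, at 27.9 CPM, was lower than in the other controls (30.6 to 56.0 CPM). Outside the region lists, vascular, blood and microglial markers summed to 184 CPM there and 39.4 to 57.2 CPM in the other controls. The part of these differences in the Fgf values of control 4 was not tested.

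Set side by side per length (CPM per kb of exon, the only scale on which genes were compared), the ligands changed order between the groups. In controls the highest was Fgf15, at 10.5 ± 6.76 (SD, n = 4), followed by Fgf8 at 7.34 ± 3.37. Next came Fgf10, a ligand of the ventral hypothalamus that is not among the 10, at 5.83 ± 3.75, and then Fgf18 at 4.81 ± 2.58. In Magoh lox/+ cells Fgf15, at 8.33 ± 1.04 (SD, n = 2), was followed by Fgf18 at 2.37 ± 0.911 and Fgf10 at 1.503 ± 0.562. Fgf8 came 4th at 1.02 ± 0.140. These are orders of means and not of every library. In control 4 Fgf15 made up 5.77% of the summed ligand level, less than Fgf8, Fgf10 (30.7%) and Fgf18 (22.4%), and in heterozygous library 1 Fgf10 (13.3%) exceeded Fgf18 (12.1%). Fgf8 made up 19.9, 21.3, 16.9 and 33.1% of the summed level of 18 ligands in controls 1 to 4 and 7.82 and 5.98% in the heterozygous libraries, so its share did not overlap between the groups. The summed level itself was 24.8 to 38.0 CPM per kb in controls and 14.3 and 15.4 CPM per kb in Magoh lox/+ cells.

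**Figure D2:**
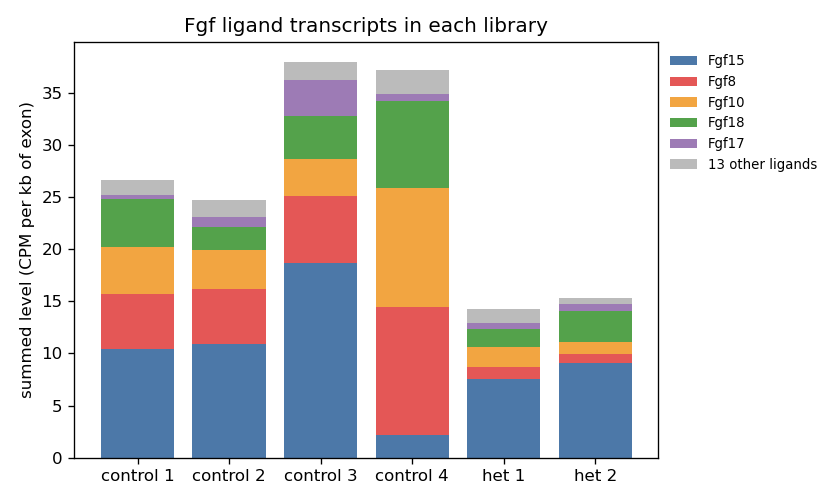
Stacked bars give the level of Fgf ligand transcripts in each library (y axis, CPM per kb of exon, linear from 0), with 5 ligands in colour and 13 others in grey. The summed level is 24.8 to 38.0 in the controls and 14.3 and 15.4 in the heterozygous (het) libraries, and the red part (Fgf8) is the one that shrinks from at least 16.9% of the bar to at most 7.82%.

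Among the 14 other Fgf ligands of a list drawn up from the family (the intracellular Fgf11 to Fgf14 were left out), 6 passed the filter, and 0 of the 6 passed edgeR in either direction. All 6 had a negative fold change, with a median of -1.49. Both heterozygous libraries lay below every control for 5 of them, against 8.14% of all genes. Fgf10 stood at 20.9, 17.3, 16.4 and 52.6 CPM in controls and 8.75 and 5.09 CPM in Magoh lox/+ cells. Control 4 was again the highest, and the groups did not overlap. Its log2 fold change was -1.96 ± 0.56 (SE) (edgeR, adjusted p = 0.793), and DESeq2 called it lower (adjusted p = 0.0263). Fgf9, a ligand of epithelia and neurons, stood at 1.39 to 1.70 CPM over the controls and at 0.471 and 0.712 CPM in Magoh lox/+ cells. Fgf3 stood at 1.03 to 2.01 and at 0.966 and 0.325 CPM, and Fgf2 at 0.831 to 1.39 and at 0.519 and 0.183 CPM. These 3 ligands sit at levels where 10.4% of all tested genes (mean under 3 CPM) had both heterozygous libraries below every control, and where the heterozygous libraries had more genes without reads. The part of that in their values was not tested. Fgf4, Fgf6 and Fgf21 had 0 reads in every library.

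The receptor side was mixed. Of 18 receptors, co-receptors and heparan sulfate genes, 17 were tested and 0 passed in either direction, with 11 below 0 and a median log2 fold change of -0.09. Fgfr1, the main receptor of the early forebrain, stood at 300, 190, 314 and 327 CPM in controls and 144 and 197 CPM in Magoh lox/+ cells. Control 2 lay below heterozygous library 2, so the groups overlapped. Its log2 fold change was -0.73 ± 0.26 (SE) (edgeR, adjusted p = 0.841). Fgfrl1, a receptor without a kinase domain, stood at 54.3 to 62.6 CPM and 42.9 and 50.3 CPM. The glypican Gpc1 (444.6 ± 84.7 CPM in 4 controls against 451 ± 85.4 CPM in 2 Magoh lox/+ libraries, mean ± SD), the heparan sulfate enzyme Ndst1 (192 ± 7.32 and 186 ± 0.109 CPM) and the syndecan Sdc3 (161 ± 29.2 and 179 ± 31.0 CPM) had overlapping groups.

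The intracellular relay held as many lower as higher genes. Of 18 adaptors, GTPases and kinases named, 18 were tested, 0 passed, and 9 were below 0 and 9 above, with a median of 0.00 (log2). The kinase Map2k2 stood at 195 ± 8.46 CPM (SD, n = 4 controls) and 210.5 ± 18.03 CPM in Magoh lox/+ cells (SD, n = 2), Nras at 234 ± 29.2 and 265.5 ± 3.61 CPM, and Cic, which encodes the repressor Capicua that ERK inactivates, at 265 ± 78.1 and 227 ± 62.1 CPM. Frs3, a docking protein of Fgf receptors, stood at 11.97 to 18.7 CPM over the controls and at 23.4 and 23.1 CPM in Magoh lox/+ cells, above every control, with a log2 fold change of 0.54 ± 0.21 (SE). The adaptor Shc1 lay below every control, at 26.9 to 39.8 CPM against 25.7 and 22.0 CPM.

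The 6 response genes had lower means in Magoh lox/+ cells, with log2 fold changes from -0.53 to -1.06 and a median of -0.90. For 5 of the 6, both heterozygous libraries lay below every control (8.14% of all genes did), the exception being Etv4. Summed over the 6, the controls had 148, 137, 199 and 183 CPM and the heterozygous libraries 96.2 and 86.1 CPM. Controls 3 and 4 were each the highest library for 3 of the 6, and each heterozygous library was the lowest for 3.

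Among the Sprouty genes, which encode membrane-associated inhibitors of receptor signalling to Ras, Spry1 (chromosome 3, 37639947 to 37644598, plus strand) stood at 41.0, 37.5, 68.3 and 35.3 CPM in controls and 20.3 and 25.3 CPM in Magoh lox/+ cells. Control 3 was far above the other controls, and the lowest control still lay above both heterozygous libraries. The means were 45.5 ± 15.4 CPM (SD, n = 4) and 22.8 ± 3.53 CPM (SD, n = 2), with a log2 fold change of -1.0 ± 0.30 (SE) (edgeR, adjusted p = 0.793). Spry1 overlaps the gene model Gm42922 on the other strand in the annotation.

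Spry2 (chromosome 14, 105891947 to 105896819, minus strand) was the steadiest of the 10 within each group. It stood at 17.9, 18.6, 22.6 and 21.8 CPM in controls and 13.8 and 14.2 CPM in Magoh lox/+ cells, so the controls spanned only 1.27-fold. The means were 20.2 ± 2.36 CPM (SD, n = 4) and 14.0 ± 0.335 CPM (SD, n = 2). Its log2 fold change, -0.53 ± 0.19 SE (edgeR, adjusted p = 0.834), was the smallest of the response genes.

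Spry4 (chromosome 18, 38586247 to 38601415, minus strand) had the lowest level per length of the 3 Sprouty genes. It stood at 6.00, 4.31, 7.18 and 4.54 CPM in controls and 3.58 and 2.18 CPM in Magoh lox/+ cells. The groups did not overlap, but heterozygous library 1 came within 1 CPM of control 2. The fitted difference, -0.94 ± 0.35 (log2, SE), did not pass edgeR's test (adjusted p = 0.85). It was -1.43 among the 4 libraries with Y-linked reads, and the difference between the 2 libraries without them was -0.26.

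Dusp6 (chromosome 10, 99263231 to 99267489, plus strand), the phosphatase that removes active phosphate groups from ERK, was the response gene with the smallest p. It stood at 38.9, 44.5, 52.4 and 58.5 CPM in controls and 31.9 and 21.6 CPM in Magoh lox/+ cells, and the groups did not overlap. The means were 48.6 ± 8.61 CPM (SD, n = 4) and 26.7 ± 7.26 CPM (SD, n = 2). The fitted difference, -0.86 ± 0.24 (log2, SE), did not pass edgeR's test (unadjusted p = 0.0077, adjusted p = 0.793).

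Etv5 (chromosome 16, 22381309 to 22439719, minus strand) and Etv4 (chromosome 11, 101769742 to 101785371, minus strand) encode ETS transcription factors of the same subfamily. Etv5 stood at 36.4, 21.3, 38.3 and 48.7 CPM in controls and 19.9 and 14.8 CPM in Magoh lox/+ cells. Its groups did not overlap, but control 2 lay close above heterozygous library 1. These are the 2 libraries with fewer reads of long transcripts. The fitted difference, -1.06 ± 0.33 (log2, SE), did not pass edgeR's test (adjusted p = 0.793), the difference between those 2 libraries was -0.10, and that between heterozygous library 2 and the other controls was -1.46. The longest annotated Etv5 transcript has 3975 nt. The part of transcript length in these values was not tested directly. With length and GC trends removed the fold change was -0.93.

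Etv4 stood at 7.51, 11.4, 10.3 and 14.2 CPM in controls and 6.81 and 7.99 CPM in Magoh lox/+ cells. Control 1 lay between the heterozygous libraries, so its groups overlapped. The fitted difference, -0.55 ± 0.29 (log2, SE), did not pass edgeR's test (adjusted p = 0.893).

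**Figure D3:**
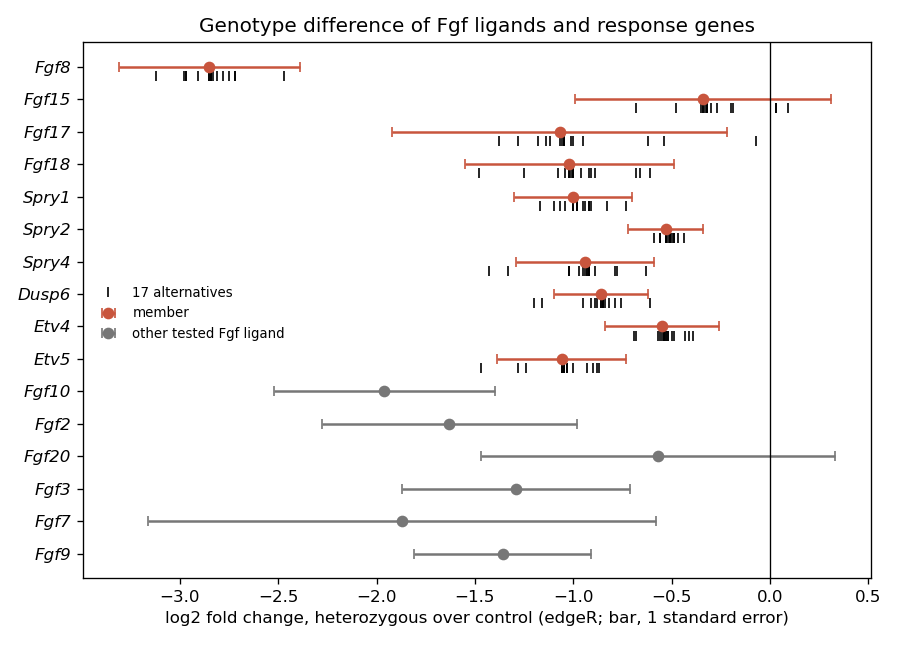
Log2 fold change of heterozygous over control cells (x axis) with 1 standard error for the 10 genes in red and 6 other tested Fgf ligands in grey, edgeR, 4 against 2 libraries. Black ticks under each red point give the value in 17 alternative fits, which cross 0 for Fgf15 and stay below it for the other 9, and Fgf8 at -2.85 lies furthest to the left.

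Capicua represses Etv genes until ERK removes it, and its part in the values of the response genes was not tested. The sequence around start sites of the genes is shown. It was searched for the octamers TGAATGAA and TGAATGGA, which Capicua binds, and for the ETS core CCGGAAGT, on both strands. RefSeq promoter windows (GRCm38.p6, 250 bases before to 50 after a start) were at hand for 5 of the 10 genes, Fgf18, Spry1, Spry2, Dusp6 and Etv5, in 6 windows. None of the 6 windows held any of these motifs, which occur in 1.30, 1.21 and 3.89% of all 32851 windows. The first 6 bases of both octamers, TGAATG, a motif chosen after the windows were seen, occurred 3 times at the inner of the 2 Etv5 start sites, 242, 198 and 129 bases before it, and once at Dusp6, 133 bases before the start. Of all windows 12.7% held it at least once and 0.17% at least 3 times. The count of 3 is the one seen at Etv5, so that share carries no weight of its own. The 250 bases before each of these starts are shown 5′ to 3′ on the strand of the gene, with TGAATG or its reverse complement CATTCA in capitals.
Etv5 inner start, chr16:22438369-22438618, minus strand: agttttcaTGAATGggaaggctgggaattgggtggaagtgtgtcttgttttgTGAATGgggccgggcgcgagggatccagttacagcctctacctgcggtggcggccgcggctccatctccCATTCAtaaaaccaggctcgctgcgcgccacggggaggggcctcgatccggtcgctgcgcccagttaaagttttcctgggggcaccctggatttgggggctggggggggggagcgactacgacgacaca
Dusp6 start, chr10:99262981-99263230, plus strand: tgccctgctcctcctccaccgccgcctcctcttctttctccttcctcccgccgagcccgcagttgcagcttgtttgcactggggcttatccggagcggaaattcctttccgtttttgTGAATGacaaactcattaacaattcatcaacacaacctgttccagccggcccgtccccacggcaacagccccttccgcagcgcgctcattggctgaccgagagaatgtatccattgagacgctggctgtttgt
At Etv5 the 3 matches continue as tgaatggg, and at Dusp6 the match continues as tgaatgac, so each differs from the octamers searched. These are matches of letters and not evidence of binding.

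Per length, response genes and ligands were interleaved in controls. Spry1 and Dusp6 were the highest of the 10, at 15.7 ± 5.29 and 15.5 ± 2.75 CPM per kb (SD, n = 4), and their ranges overlapped. Fgf15 (10.5), Spry2 (9.69 ± 1.13), Etv5 (8.81 ± 2.75) and Fgf8 (7.34) followed, then Fgf18 (4.81) and Etv4 (3.50 ± 0.895), and Fgf17 (1.39 ± 1.41) and Spry4 (1.16 ± 0.282) were the lowest. Each neighbour in this order overlapped with the next in range over the 4 controls, and only Fgf8 exceeded the next gene, Fgf18, in 4 of 4 control libraries. In Magoh lox/+ cells Fgf8 moved from rank 6 to rank 8 of the 10. Taking the longest transcript in place of all exons put Fgf15 at the top, at 17.8 CPM per kb.

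**Figure D4:**
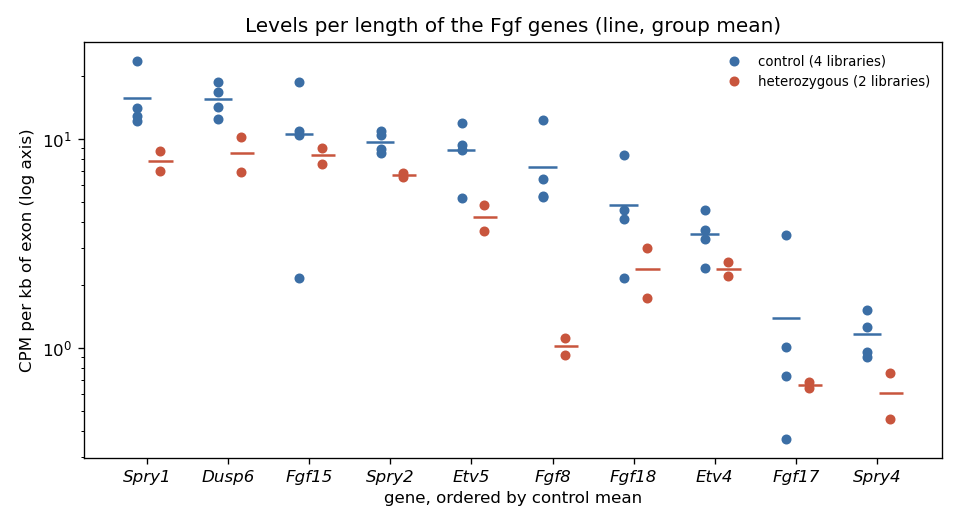
Level per length of each of the 10 genes (y axis, CPM per kb of exon, log axis), ordered on the x axis by control mean, with 4 control libraries in blue, 2 heterozygous libraries in red and lines at group means. Neighbouring genes overlap in their blue points, and the gap between blue and red is widest at Fgf8, with means of 7.34 and 1.02.

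Most other feedback and response genes of the pathway had lower means in Magoh lox/+ cells. Of 18 named, 17 were tested, 0 passed edgeR in either direction, and 15 had a negative log2 fold change, with a median of -0.37. Over all genes tested 53.9% were below 0, and the median was -0.03. Both heterozygous libraries lay below every control for 4 and above for 1, against 8.14% and 6.17% of all genes. Il17rd (Sef), a membrane inhibitor of Fgf signalling, stood at 57.1 to 111 CPM over the controls and at 53.3 and 49.0 CPM in Magoh lox/+ cells, below every control, with a log2 fold change of -0.68 ± 0.27 (SE). Dusp4, an inducible phosphatase of ERK in the nucleus, went the other way, at 60.5 to 94.2 CPM over the controls and at 96.4 and 125.5 CPM in Magoh lox/+ cells, above every control (0.52 ± 0.22). Spred1, a relative of the Sprouty proteins, was split between the heterozygous libraries, at 99.7 and 61.6 CPM against 92.7 to 108 CPM. The Ras GTPase activator Nf1 (146 ± 39.9 CPM in 4 controls against 111.5 ± 9.05 CPM in 2 Magoh lox/+ libraries, mean ± SD) and the cyclin Ccnd1 (877 ± 61.1 and 787 ± 18.6 CPM) had overlapping groups.

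Genes of rostral patterning, among which Fgf8 acts, were mixed. Of 12 named, 11 were tested, 0 passed, 7 were below 0 and 4 above, with a median log2 fold change of -0.34. Nr2f1 and Nr2f2 encode COUP transcription factors, which Fgf8 is known to hold down in the cortex. For both genes the heterozygous libraries lay above every control, as for 6.17% of all genes. A link to Fgf8 in these cells was not tested. Nr2f1 stood at 129 to 173 CPM over the controls and at 187 and 201 CPM in Magoh lox/+ cells, and Nr2f2 at 80.2 to 131 and at 150 and 134 CPM (edgeR, adjusted p = 0.85 each). Shh, the ventral midline signal, stood at 260, 265, 348 and 325 CPM in controls and 217 and 256.5 CPM in Magoh lox/+ cells, below every control. Wnt8b (156 ± 62.7 CPM in 4 controls against 88.8 ± 22.3 CPM in 2 Magoh lox/+ libraries, mean ± SD) and Six3 (154 ± 29.6 and 117.5 ± 48.0 CPM) had overlapping groups.

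Several marker lists differed between libraries beside the Fgf genes. MGE lineage markers summed to 1489 and 2518 CPM in heterozygous libraries 1 and 2, the latter above the highest control (1835 CPM). Of 8 neuron markers 6 lay above every control in both heterozygous libraries, against 6.17% of all genes, and their sum was 1981 to 2914 CPM over the controls and 3412 and 4078 CPM in Magoh lox/+ cells. Progenitor markers summed to 3069 to 4604 CPM and to 3100 and 3639 CPM, with overlapping groups. Most of these sums came from Vim and Nes. Nes was lowest in control 2 (551 CPM) and heterozygous library 1 (667 CPM), which had fewer reads of long transcripts. The part of transcript length in the sums was not tested. Hes1, a progenitor gene, lay below every control (50.8 to 82.0 CPM against 38.2 and 34.3 CPM). In the hypothalamic and preoptic list 5 of 9 lay above every control, among them Sim1 and Otp. In the same list 1, Rax, lay below (61.1 to 133 CPM against 46.7 and 47.6 CPM). Of all genes 6.17% lay above every control and 8.14% below. The sum of the hypothalamic and preoptic list was 280 to 408 CPM over the controls and 370 and 377 CPM in Magoh lox/+ cells. Septum and commissural plate markers summed to 96.3 to 332 CPM over the controls and to 151 and 250 CPM in Magoh lox/+ cells. These groups overlapped, and 0 of the 5 genes lay below or above every control. Markers of the midbrain and isthmus, where Fgf8, Fgf17 and Fgf18 are also made, were at most 1.66 CPM but for Wnt1, which stood at 4.95 to 15.0 CPM over the controls and at 2.47 and 2.62 CPM in Magoh lox/+ cells. DESeq2 called Wnt1 lower (adjusted p = 0.0333) and edgeR did not. The sum of the list was 5.71 to 18.9 CPM and 3.11 and 4.21 CPM. Without Wnt1 the sums were 0.751 to 3.85 CPM and 0.636 and 1.59 CPM, with overlapping groups. Of the list 5 genes were tested, and all 5 had a negative fold change, with a median of -1.97 (log2). Leaving out Wnt1, 4 of 4 were below 0, with a median of -2.07, but 0 lay below every control. Over all genes tested 53.9% were below 0. En2 and Pax5 each had at most 1.35 CPM in any library. The part of these lists in the Fgf values was not tested.

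Markers of cells outside the telencephalic wall were also summed. The 14 surface ectoderm genes summed to 16.5 to 24.3 CPM over the controls and to 16.4 and 13.1 CPM in Magoh lox/+ cells, with Krt14 and Krt15 at 0 reads in every library. Of the 11 of them that were tested, 6 had a fold change below 0 and 5 above. Below every control lay 2 of the 11, against 8.14% of all genes. The pituitary gene Pou1f1 had 0 reads in every library. Vascular, blood and microglial markers summed to 366 and 7.77 CPM in the heterozygous libraries and to 39.4 to 184 CPM in controls. Mesenchyme and neural crest markers summed to 168 and 68.5 CPM against 108 to 168 CPM. The part of these lists in the Fgf values was not tested.

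**Figure D5:**
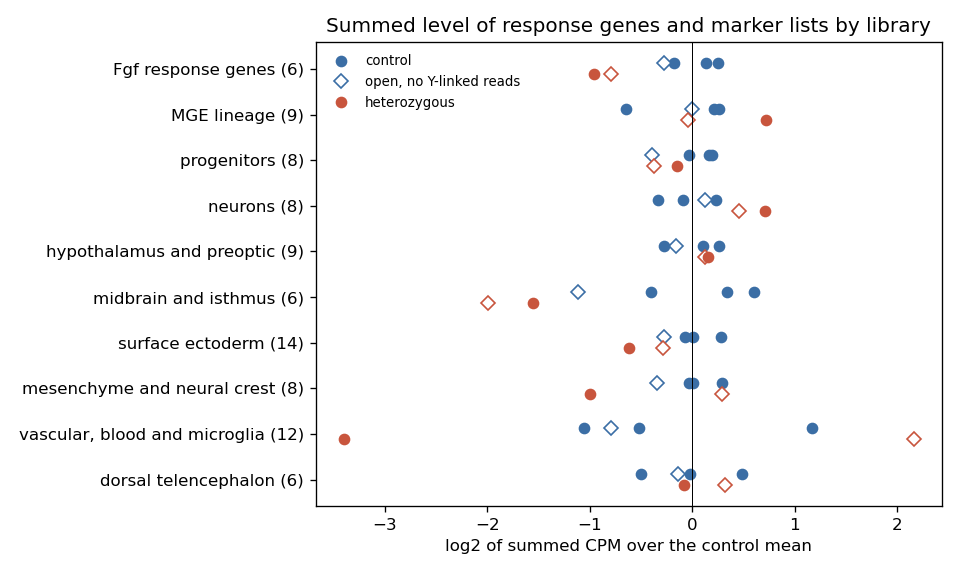
Summed CPM of the 6 response genes and of 9 marker lists in each library, as the log2 ratio to the control mean (x axis), with controls in blue, heterozygous libraries in red and open diamonds for libraries without Y-linked reads. The septum and commissural plate list and the pituitary primordium list are not drawn. Both red points lie left of all blue points for the response genes, midbrain and isthmus markers and, narrowly, surface ectoderm markers. For neuron markers both lie right of all blue points. Without Wnt1 the midbrain and isthmus sums of the groups overlapped.

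The genes most like Fgf8 over the 6 libraries, by Pearson r of log2 CPM among 10165 candidates averaging 5 CPM or more, were Itgb1 (0.997), Ppp2r2a (0.991), Tmem143 (0.990), Mcm6 (0.986) and Cdh10 (0.983). Itgb1 encodes integrin beta 1, Ppp2r2a a subunit of a phosphatase, Mcm6 a subunit of the replicative helicase and Cdh10 a cadherin. Each of the 5 was highest in control 4 and below all controls in both heterozygous libraries, but over a far narrower range than Fgf8. Itgb1, for example, stood at 180 to 210 CPM over the controls and at 145.5 and 142 CPM in Magoh lox/+ cells. Of the response genes Spry2 (0.938, rank 65) and Dusp6 (0.936, rank 72) came closest, while Fgf15 stood at -0.272. The mean of the 6 response genes was most like Adam15 (0.998), Lrig2 (0.989), Ints6 (0.989), Dmd (0.987) and Slc26a11 (0.986), and Fgf8 was 42nd, at 0.946. All genes were measured in the same 6 libraries, which differ in genotype and depth, and 150 genes reached at least 0.9 with Fgf8. The likeness is therefore a description only.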

How the data were processed

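RNA of 6 samples was sequenced. The tools named, per the submitters' processing notes, are STAR, HTSeq and Trim Galore with the build mm10. Their versions, the annotation and any strand setting are not given. The authors deposited raw read counts for 38561 genes (0 rows without a gene) and a second table of 18065 genes, whose values are a signal. The deposited signal was checked to be the raw count divided by 1 factor per library (largest relative deviation 5.1e-15). Columns were matched to samples by sample code, and list genes to rows by symbol, or by GENCODE M21 gene ID where a symbol had several rows or an older name.

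The raw counts were tested with edgeR 4.0.16 (R 4.3.3; filterByExpr, TMM, robust glmQLFit and glmQLFTest, two-sided, threshold 0.05 after Benjamini-Hochberg adjustment over 16495 genes). Standard errors are the fold change over the square root of F. Alternatives were DESeq2 1.42.0, limma 3.58.1 (voom, and trend on log2 of the deposited signal plus 1), other scalings and filters, a Y-linked covariate, removal of length and GC trends (loess, span 0.5) and leaving out each library. Log2 CPM used a prior count of 2. Scripts were tested on simulated data. Coordinates and lengths are from GENCODE M21 (GRCm38).

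The 10 genes, the lists and the checks were chosen with earlier results of these data known. Named are the 10 genes, the sample checks, from each pathway list up to 4 genes by control mean and 2 by smallest p, and the 5 genes most like Fgf8 or the response mean. Single markers, overlapping gene models and genes named for having 0 reads fall outside this rule and were chosen after their values were seen. Results that rest on a few single genes of the lists are not reported here.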

Additional observations from a re-analysis of the deposited data

Results flagged for a closer look

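Fgf8 in control 4 stood apart from the other 3 controls. Its gap to the next control, divided by the range of the 4, was 0.838, above the critical value of 0.829 for 4 samples. The ratio was taken on linear CPM and not on the log2 scale of the fold changes. Of the 10 genes examined in this way it was the only 1 to exceed that value, and chance flags about 1 group in 20. Spry1, with control 3 at 68.3 CPM, came just under that value. Without control 4 the log2 fold change of Fgf8 was -2.47.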

How the results depend on the processing

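Of 17 alternatives, of which 1 (only the 4 libraries with Y-linked reads) was chosen after seeing the data, 16 called 0 genes, and DESeq2 called 61, among them 1 of the 10 genes described, Fgf8. The log2 fold change kept its sign in 17 of 17 alternatives for 9 of the 10 genes. For Fgf15 it turned to 0.03 with limma-voom, 0.03 with limma-trend on the deposited values and 0.09 without control 3, and without single libraries it ran from -0.68 to 0.09. The cause was not tested. Fgf8 ranged from -3.12 to -2.47, with adjusted p from 8.39e-07 to 0.9999. The count of 5 response genes below every control was 5 under total-count, RLE and the authors' scaling, and 5 to 6 without single libraries, also a choice made after seeing the data. Per-kb levels of Fgf15 and Etv4 moved to 17.8 and 4.53 with the longest transcript as length, and that of Fgf17 went from 1.39 to 0.70 without control 3, below Spry4. Fits without a heterozygous library assume that the lone sample varies like the controls. No paired analysis was possible because the 2 groups share only 1 number of the sample codes and the labels do not say what it marks. Fgf17 rested on 23 to 265 reads per library.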
